A study of Mus musculus with 12 samples.

Results

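The difference between 2 N2a cell lines was measured before any knockdown or induction, in 4 of the 12 libraries of a study of Sap30bp isoforms. N2a is a mouse neuroblastoma line, here in a Flp-In rtTA derivative, which accepts a cDNA at a recombination site and expresses it when doxycycline is given. One line carried a FLAG-tagged Sap30bp cDNA without exon 3 (the exon-3-lacking line) and the other a FLAG-tagged Sap30bp cDNA with exon 3 (the exon-3-containing line). The 4 control libraries, 2 biological replicates of each line, came from cells that had received a non-targeting siRNA and no doxycycline. They were chosen by their labels alone, the exon-3-containing control group set against the exon-3-lacking control group. The other 8 libraries, used here only to see whether a difference recurred, were 2 per line with an siRNA against Sap30bp and no doxycycline (knockdown) and 2 per line with that siRNA and doxycycline (rescue). In all groups the medium was changed 24 hours after transfection and the cells were harvested at 72 hours, with the wells of 2 dishes combined for controls and of 3 for knockdown and rescue. Each isoform was represented by 1 line, so line, insertion event and inserted isoform cannot be told apart.

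SAP30BP is a nuclear protein that works with the splicing factor RBM17 in the removal of short introns. Neuroblastoma arises from sympathetic precursors of the neural crest, and its cells are described on a scale from an adrenergic state, run by transcription factors such as HAND2 and marked by noradrenaline synthesis, to a mesenchymal state, marked by matrix, adhesion and contractile genes. Dbh, Gap43, Acta2 and Fn1 are genes of these states and were taken as markers of the difference between the lines.

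The exon that separates the 2 cDNAs is 48 nt long. It is shown with 15 bases of each neighbouring exon, from GENCODE vM21 transcripts, with exon 3 in capitals, at chr11:115938010-115938057 of GRCm38 on the + strand.
Sap30bp exon 3: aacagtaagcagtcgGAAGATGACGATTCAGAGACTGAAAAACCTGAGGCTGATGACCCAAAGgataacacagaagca
In the control cells the Sap30bp transcripts of both lines mostly included it. The percent spliced in, the share of transcripts with the exon, was 90.88% and 89.98% in the 2 libraries of the exon-3-lacking line and 94.01% and 95.77% in those of the exon-3-containing line. The groups did not overlap, and the difference was 4.46 percentage points (SE 3.01), with an adjusted p of 1 by limma. The same difference was 25.44 points (SE 3.01, limma adjusted p = 0.107) under knockdown, where the 2 exon-3-lacking libraries read 74.34% and 67.91% and the exon-3-containing ones 96.32% and 96.8%. Under rescue, with the cDNA induced, inclusion was 11.69% and 5.87% in the exon-3-lacking and 98.81% and 99.19% in the exon-3-containing libraries. Sap30bp then stood at 196.49 and 141.28 RPKM. Whether reads from the inserted cDNA entered the control and knockdown values was not tested. The Sap30bp level in the authors' deposited table was 40.03 RPKM (reads scaled to transcript length and library size) in the exon-3-lacking and 33.59 in the exon-3-containing control, with a false discovery rate (FDR) of 0.931. Rbm17, whose product binds SAP30BP, was deposited at 102.15 and 104.75 RPKM, with an FDR of 1.

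The authors' deposited table holds 1 RPKM value per group with the replicates already combined, so a level of expression has no SD and no library could be left out. Its log2 fold changes, written here as exon-3-containing over exon-3-lacking line, p-values and FDR are the authors' own, and every expression value below is deposited or counted from deposited values. Read numbers do not accompany any of these values, so the depth is unknown. Both lines expressed genes of the labelled cell type. The 12 adrenergic markers summed to 835.49 RPKM (exon 3 lacking) and 520.23 RPKM (exon 3 contained). Of the 11 with a test, 4 had an FDR under 0.05, all lower in the exon-3-containing line. Among the 12, Stmn2, a neuronal microtubule regulator, was deposited at 242.34 and 211.55 RPKM. Hand2, a sympathetic transcription factor, stood at 134.09 and 82.55. Markers of other cells were low, with 6 immune markers summing to 0.92 RPKM (exon 3 lacking) and 1.20 RPKM (exon 3 contained), 4 endothelial markers to 1.62 and 2.54, 4 epithelial markers to 1.14 and 1.66, and 6 Schwann and glial markers to 6.78 and 6.37, with 5 of the 6 under 1 RPKM. The 12 mesenchymal markers summed to 1047.20 and 1207.25 RPKM, most of it Vim. Of the adrenergic markers, 2 were under 1 RPKM in both lines, and 1 of these was listed at 0. The other was Th, the first enzyme of catecholamine synthesis, deposited at 0.52 and 0.38 RPKM.

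Of 21541 genes with a test, the authors' deposited table gave an FDR under 0.05 between the control groups for 803, which is 3.73% of genes tested. The 392 higher genes were 1.82% and the 411 lower genes 1.91%. At least a 2-fold change was seen in 583 of the 803, and 730 were protein coding. The largest differences were near loss or gain of single genes. Klhl4, an X-linked gene of the kelch family, had 0.26 RPKM where exon 3 was lacking and 23.7 where it was contained (log2 fold change 6.49, FDR 9.58e-86). Dbh, dopamine beta-hydroxylase, which makes noradrenaline, went the other way, from 8.99 to 0.2 RPKM (-5.35, FDR 2.36e-53).

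The same line comparison in the other libraries, which share no sample with the controls, gave an FDR under 0.05 for 624 genes under knockdown (2.90%) and 708 under rescue (3.29%). Of the 803 genes, 412 passed under knockdown, which is 51.31% of the control calls and 66.03% of the knockdown calls, with 1 of opposite sign. Under rescue 412 passed as well, 51.31% of the control and 58.19% of the rescue calls, with 2 of opposite sign. All 3 comparisons called 316 genes with 1 sign, 166 higher and 150 lower. Counting sign alone, 778 of the 803 kept their direction in all 3. The differences were smaller outside the control cells: genes called higher had a median log2 fold change of 1.59 in control, 1.10 under knockdown and 1.12 under rescue, and genes called lower had -1.39, -0.97 and -0.96. The genes were chosen by their control values, and the difference of these medians was not tested.

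**Figure D1:**
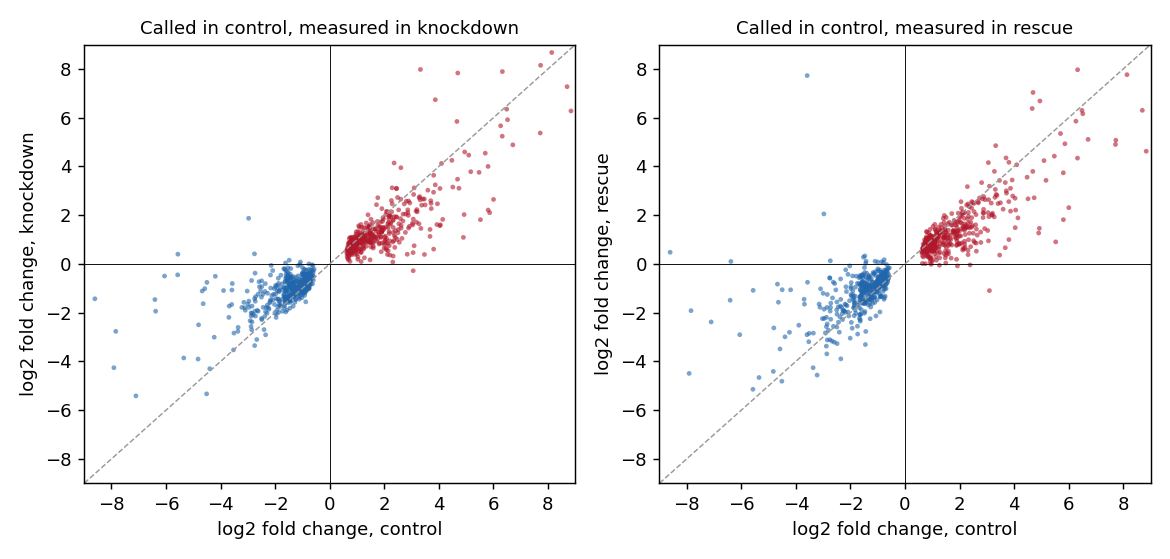
Each point is 1 of the 803 genes called between the control lines, with the control log2 fold change on the x axis and that of the same line comparison under knockdown (left) or rescue (right) on the y axis, red for higher and blue for lower in the exon-3-containing line, and a dashed line where both are equal. Most points keep their sign (778 of 803 in all 3 comparisons), and many lie closer to 0 on the y axis than on the x axis.

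Adrenergic genes that passed were all lower in the exon-3-containing line. Of 38 tested genes of adrenergic neuroblastoma identity, 9 were called lower and 0 higher (23.68%, beside 3.73% of all genes), and the median log2 fold change was -0.47, beside -0.01 over all genes. Under knockdown 5 and under rescue 7 were called lower, again with 0 higher. Cells of the exon-3-lacking line had Dbh at 8.99 (control), 14.32 (knockdown) and 13.3 RPKM (rescue), and those of the other line had 0.2, 1.61 and 1.39. Every exon-3-lacking group lay above every exon-3-containing group.

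Ret, a receptor for glial-cell-line-derived growth factors, fell from 90.68 to 28.86 RPKM (-1.66, FDR 1.98e-08), and Rgs4, which shortens G-protein signalling, from 3.71 to 0.8 (-2.35, FDR 3.71e-05). Mycn, the proto-oncogene amplified in part of human neuroblastomas, fell from 2.37 to 0.33 RPKM (-2.72, FDR 5.63e-07), and lies on chromosome 12, described below. Further calls were Tfap2b and Hand2, transcription factors of the sympathetic lineage, Gch1, which supplies the cofactor of tyrosine hydroxylase, and Gap43, a growth cone protein. Gap43 was deposited at 115.19 and 35.99 RPKM in the control groups (-1.62, FDR 0.000447), but at 130.79 and 128.01 under knockdown (FDR 1) and 169.36 and 96.54 under rescue (FDR 0.199). Its level in the exon-3-containing control was the lowest of the 6 groups. Knockdown over control within that line gave Gap43 a log2 fold change of 1.82 (FDR 7.51e-05), beside 0.16 within the exon-3-lacking line (FDR 0.995). For Dbh these were 2.25 (FDR 6.08e-08) and 0.76 (FDR 0.0813). Mycn (FDR 0.0896) and Rgs4 (FDR 0.897) did not pass within the exon-3-containing line. An approximate test of the line difference in control against that in the other conditions, over all genes, called 2 genes for knockdown (0.00928%) and 4 for rescue (0.0186%), and Gap43 was not among them. Not all of the program was lower: Phox2a stood at 48.97 and 35.99 RPKM (FDR 0.539), Ddc at 7.97 and 10.54 (FDR 0.961) and Gata3 at 2.1 and 2.76 (FDR 0.783).

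The promoter of Dbh is shown because this gene had the largest difference of the list, and its letters were searched for ATTA, the core that many homeodomain proteins bind. The run covers 250 bases before to 50 after the start, from RefSeq on GRCm38.p6 at chr2:27165257-27165556, + strand, with ATTA, or TAAT for the other strand, in capitals.
Dbh promoter: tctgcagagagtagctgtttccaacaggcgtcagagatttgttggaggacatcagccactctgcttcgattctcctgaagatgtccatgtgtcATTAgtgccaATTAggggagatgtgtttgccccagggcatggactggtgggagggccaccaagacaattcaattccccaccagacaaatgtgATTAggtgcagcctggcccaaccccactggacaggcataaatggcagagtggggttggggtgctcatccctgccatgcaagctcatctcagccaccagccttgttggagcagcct
The run holds 3 matches. ATTA or TAAT occurs in 58.03% of 32851 RefSeq promoters of this length and in 14 of the 27 adrenergic genes with an entry (51.9%), so the letters alone do not set Dbh apart, and binding was not measured.

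**Figure D2:**
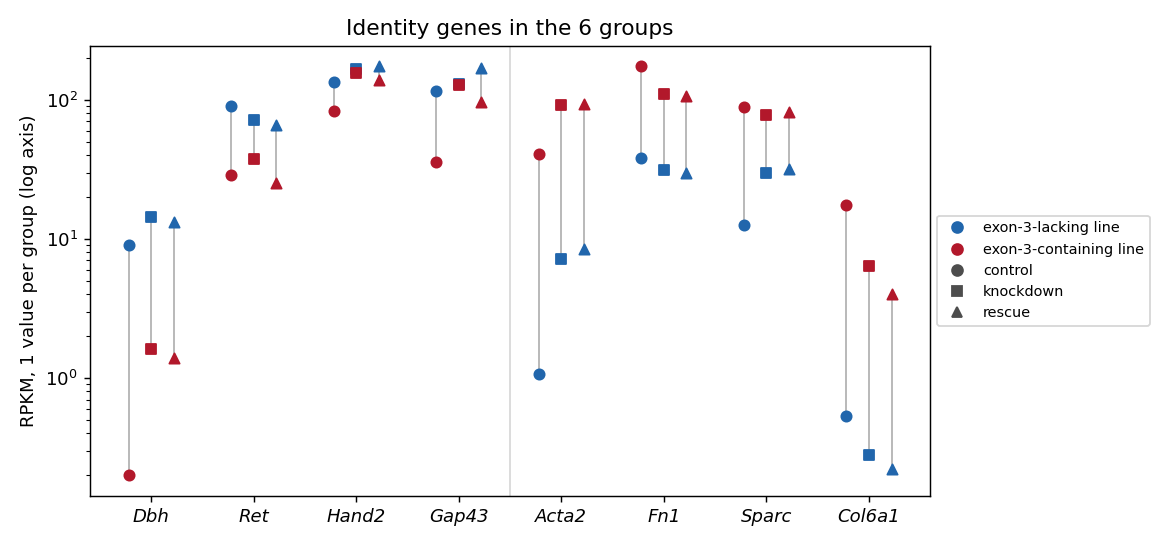
RPKM on a log axis, 1 deposited value per group, for 4 adrenergic genes (left) and 4 genes of matrix and contraction (right), blue for the exon-3-lacking and red for the exon-3-containing line, with a circle for control, a square for knockdown and a triangle for rescue, joined within a condition. Dbh and Ret lie lower in the exon-3-containing line in all 3 conditions, Acta2, Fn1, Sparc and Col6a1 higher in all 3, and Gap43 differs little under knockdown (130.79 and 128.01 RPKM).

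Part of the genes of contraction and matrix were higher in the exon-3-containing line. Of 34 tested genes of the mesenchymal state 7 were called higher and 0 lower (20.59%, beside 3.73% of all genes), with a median log2 fold change of 0.17. Under knockdown 4 were called higher and 0 lower, and under rescue 4 higher and 4 lower. Acta2, smooth muscle actin, was deposited at 1.07 and 40.91 RPKM in the control groups (5.17, FDR 0.000148), 7.17 and 92.35 under knockdown (FDR 0.0103) and 8.5 and 93.93 under rescue (FDR 0.0219). Fn1, the matrix protein fibronectin, stood at 38.03 and 173.87 (1.91, FDR 0.0218), 31.16 and 110.3 (FDR 0.175) and 29.84 and 106.23 (FDR 0.0755). Both genes were higher in each exon-3-containing group than in any exon-3-lacking group, although for Fn1 only the control comparison passed. Sparc, a collagen-binding matrix protein (12.66 to 89.27 RPKM, FDR 8.69e-05), Wwtr1, the Hippo effector TAZ (1.39 to 5.86, FDR 6.07e-09), Pdgfra, a growth factor receptor (1.74 to 3.57, FDR 0.0018), Zeb2, a repressor of epithelial genes (15.84 to 27.3, FDR 0.0295), and Anxa1, an annexin (0.06 to 1.56, FDR 2.19e-05), made up the rest.

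Of 12 markers of mesenchymal cells 2 were called higher and 0 lower, 6 were above and 6 below 0, and 8 were under 1 RPKM. Several genes known for this state were near 0 in both lines, where a difference could hardly be seen. Prrx1, its core transcription factor, was deposited at 0.06 RPKM in both controls, Fosl1 at 0.07 and 0.03, Cd44 at 0.03 and 0.01, and Col1a1 at 0.2 and 0.03. Vim, vimentin, was abundant in both, at 998.92 and 974.82 RPKM (FDR 1). Tagln, which usually accompanies Acta2 in smooth muscle, was near 0 in both controls, at 0.31 and 0.09 RPKM, as was Cnn1 at 0.04 and 0.03.

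Among 25 tested genes of actin and smooth muscle contraction 4 were called higher and 0 lower (16%, beside 3.73% of all genes). The median was 0.56 and 21 of 25 were above 0. The calls include Acta2, which is also in the mesenchymal list. Actg2, enteric smooth muscle actin, rose from 16.45 to 95.88 RPKM (2.45, FDR 3.19e-13) and also passed under knockdown (32.48 to 133.83) and rescue (46.01 to 132.33). Cald1, caldesmon, rose from 83.28 to 193 RPKM (1.13, FDR 0.0288), and Myl9, a myosin light chain, from 3.13 to 17.51 (2.41, FDR 0.0241). Cald1 passed under knockdown (FDR 0.0228) and not under rescue (FDR 0.0613). Myl9 passed in neither (FDR 0.562 under knockdown and 0.84 under rescue). Of 33 genes of matrix and basement membrane 6 were called higher and 1 lower (21.21%), with a median of 0.29. The higher ones include Sparc and Fn1, which are also in the mesenchymal list. Col6a1, a collagen VI chain, rose from 0.53 to 17.51 RPKM (5.10, FDR 3.7e-13). Its partner Col6a2 was listed at 0 in the exon-3-lacking and at 1.44 in the exon-3-containing control (FDR 1.43e-11). The laminin chains Lamb2 (1.11 to 8.92 RPKM, FDR 7.1e-06) and Lama4 (4.33 to 14.08, FDR 2.96e-06) were higher, and Eln, elastin, was lower (7.52 to 2.95, FDR 0.00146).

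A further group was picked by size and recurrence, as the 12 highest and 12 lowest ratios among the 122 genes that reached 5 RPKM in a control group and differed at least 2-fold in one direction in control, knockdown and rescue. Beside Klhl4, Acta2, Col6a1 and Sparc, the high end held Itgb3, an integrin chain for fibronectin and other ligands (0.18 to 10.24 RPKM, FDR 1.73e-19), and Itga8, an integrin chain (0.75 to 7.12, FDR 3.71e-17). It also held Tmsb4x, the actin-binding thymosin beta 4, which went from 104.11 to 651.17 RPKM (FDR 3.66e-08). Mylk3, a myosin light chain kinase, Vamp8, a vesicle fusion protein, Soat1, which esterifies cholesterol, Bex1 and Lgals9, a galectin, were the others. Klhl4, Tmsb4x and Bex1 lie on X, whose genes were higher as a whole, as given below. Lgals9 passed in control (FDR 0.00284) and not under knockdown (FDR 0.0848) or rescue (FDR 0.141). Sparc also passed in control alone, with an FDR of 0.236 under knockdown and 0.21 under rescue. Its exon-3-lacking level was 12.66 RPKM in control, 29.63 under knockdown and 32.01 under rescue.

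The low end held, beside Dbh, a pair of receptors for peptides of the secretin family. Adcyap1r1, which binds PACAP, went from 30.72 to 5.57 RPKM (FDR 1.29e-10), and Sctr, the secretin receptor, from 5.44 to 0.19 (FDR 3.96e-18). Grk3, a kinase that desensitizes such receptors, went from 11.11 to 1.59 RPKM (FDR 1.4e-06). Rab27a, a GTPase of secretory granules (9.61 to 1.27, FDR 5.65e-08), Fmnl1, a formin (14.67 to 1.33, FDR 9.5e-12), Arhgap6, a GTPase-activating protein on the X chromosome (6.57 to 0.3, FDR 3.4e-16), E2f6, a repressor of the E2F family (7.23 to 0.53, FDR 2.8e-08), and Slc9b2 (15.64 to 2.79, FDR 5.55e-09) followed. E2f6 lies on chromosome 12, whose genes were lower as a whole. A further pair, Gm27980 and Gm26318, are annotated small RNAs listed at 0 in the exon-3-containing control, and neither passed in the authors' deposited table (FDR 0.176 and 0.596).

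Neuronal genes beyond the adrenergic list were called in both directions. Of 29 synaptic vesicle and exocytosis genes 2 were called lower and 0 higher (6.9%, beside 3.73% of all genes), but 23 were below 0 and the median was -0.39. Syn2, a synapsin of the vesicle surface, fell from 19.32 to 7.17 RPKM (-1.41, FDR 1.11e-09), and Syt4, a synaptotagmin, from 93.99 to 51.57 (-0.88, FDR 0.0234). Neither passed under knockdown (FDR 0.135 and 0.802) or rescue (FDR 0.439 and 0.729). Among 46 axon guidance genes 5 were called lower and 1 higher (13.04%). Slit1, a repellent ligand, fell from 2.01 to 0.46 RPKM (FDR 0.0179), while the semaphorin receptors went in both directions, with Nrp1 at 12.52 and 6.55 (FDR 0.00671) and Nrp2 at 10.52 and 21.29 (FDR 0.00648). Plxnd1, another semaphorin receptor, fell in all 3 comparisons (20.4 to 10.88 RPKM in control, FDR 0.0315). Of 31 voltage-gated channels, 1 was called higher (Kcnc1) and 1 lower (Scn1a), which is 6.45%. Of 10 Hox genes, only Hoxc10 was called (10%), at 6.47 and 1.01 RPKM (FDR 5.97e-09).

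Most metabolic genes had values below 0, with few members called. Of 30 genes of glycolysis and hypoxia 29 were below 0, with a median of -0.42, and 4 were called lower (13.33%, beside 3.73% of all genes). They were Aldoc, an aldolase (18.97 to 6.68 RPKM, FDR 0.00011), Ndrg1, a hypoxia-induced gene (11.56 to 5.51, FDR 0.00485), Slc2a3, a glucose transporter (173.81 to 115.94, FDR 0.0271), and Slc16a3, a lactate exporter (635.92 to 343.92, FDR 0.0178). All 4 were also called lower under knockdown and rescue, where 5 and 18 of the list were called lower. Of 24 cholesterol synthesis genes 22 were below 0, with a median of -0.37, and 2 were called lower (8.33%). Lss, lanosterol synthase (77.68 to 42.56 RPKM, FDR 0.00119), and Cyp51, its successor in the pathway (87.59 to 62.76, FDR 0.02), passed. Neither passed under knockdown, and there the list's median was 0.19. Of 43 cytosolic ribosomal proteins 39 were above 0, with a median of 0.30 in control, 0.39 under knockdown and -0.19 under rescue, and 0 were called in the authors' deposited table in any of the 3.

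Of 24 interferon response genes 4 were called higher and 1 lower (20.83%, beside 3.73% of all genes). Ifit2, an antiviral RNA-binding protein, rose from 0.17 to 2.26 RPKM (FDR 2.1e-13) and its relative Ifit1 from 0.03 to 0.35 (FDR 2.76e-05), and both passed in all 3 comparisons. B2m, the light chain of MHC class I, rose from 327.13 to 680.18 (FDR 0.0281) and Bst2, tetherin, from 22.63 to 45.46 (FDR 0.0289), and neither passed under knockdown or rescue. Oasl1 was the lower one, at 0.44 and 0.16 RPKM. Of 36 imprinted genes 6 were called higher and 0 lower (16.67%). The 6 were Peg3, Usp29, Snrpn, Mest, Peg10 and Zdbf2, all expressed from the paternal allele. Peg3 rose from 23.8 to 58.53 RPKM (1.31, FDR 0.000152), Snrpn from 48.92 to 108.6 (1.11, FDR 0.000419) and Zdbf2 from 45.29 to 80.2 (0.79, FDR 0.0221). Peg3, Usp29 and Snrpn lie on chromosome 7, whose genes were higher as a whole, as given below.

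Genes of the splicing machinery gave no call. By the FDR of the authors' deposited table (edgeR), 0 genes were called among 50 of the core spliceosome (median -0.05), 15 partners of SAP30BP and factors of the 3' splice site (-0.05) and 35 SR and hnRNP proteins (0.02), and over all genes 2483 had an unadjusted p under 0.05. With 3.73% of all genes called, lists of this size would hold few calls at that share. Of 30 tissue splicing regulators Rbm20 alone was called (0.34 to 0.07 RPKM, FDR 0.00297), with a median of -0.26 and 21 below 0. Genes of G2 and mitosis (0 of 30), clustered protocadherins (0 of 54), immune markers (0 of 6) and Y-linked genes (0 of 2) gave no call either. DNA replication (1 of 39 higher, the X-linked Pola1), p53 targets (1 of 22 higher, the X-linked Eda2r), REST and neuronal gene repression (1 of 20 lower, Rcor1 on chromosome 12), immediate early genes (2 higher and 1 lower of 35), the integrated stress response (2 lower of 27), neural crest and glial genes (1 lower of 9, Erbb3) and endothelial and epithelial markers (1 higher of 7, Tek at 0.1 and 0.32 RPKM) gave few.

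**Figure D3:**
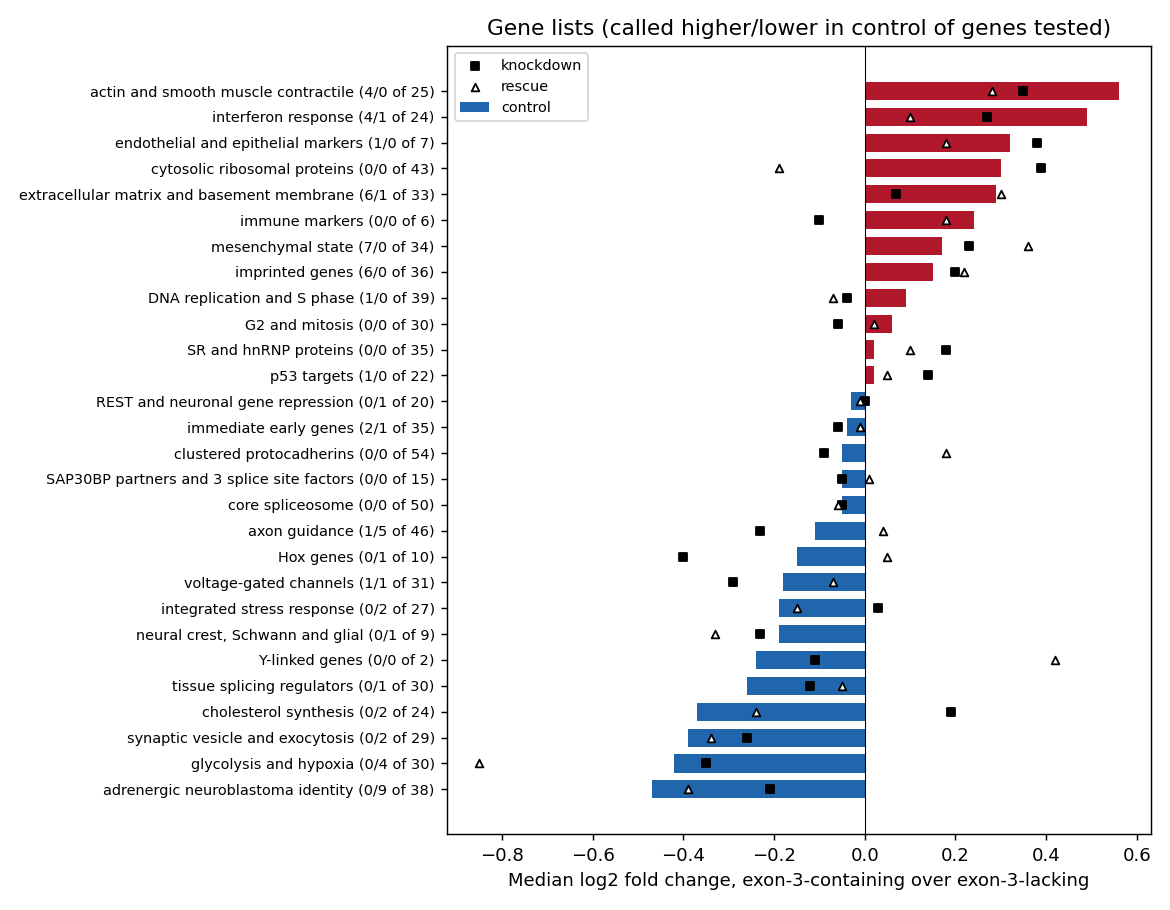
Median log2 fold change of each gene list in control (bars, red above and blue below 0), knockdown (squares) and rescue (triangles), with the genes called higher and lower in control and the genes tested in brackets. Adrenergic identity is the lowest in control (-0.47, 9 of 38 called lower) and actin and contraction the highest (0.56, 4 of 25 called higher).

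The difference between the lines also varied by chromosome. Over 12388 genes with at least 1 RPKM in both control groups, the median log2 fold change of a chromosome was -0.383 on chromosome 12, 0.323 on X, 0.239 on 18 and 0.205 on 7, and between -0.164 and 0.104 on the other 16. The values under knockdown were -0.376, 0.360, 0.251 and 0.139, and under rescue -0.364, 0.316, 0.299 and 0.164. Over all 20 chromosomes the median moved by at most 0.066 between control and knockdown, which share no library. On chromosome 12, 87.5% of 447 genes were lower in the exon-3-containing line, and on chromosome 18, 83.3% of 323 were higher.

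The share of genes called was above the 3.73% of all genes on X and chromosome 12 and not on 7 and 18. On X 75 of 679 tested genes were called, 72 of them higher (11.05%), and on chromosome 12 62 of 782, 57 of them lower (7.93%). On chromosome 7 57 of 1812 were called (3.15%) and on 18 20 of 568 (3.52%). Chromosomes 7, 12, 18 and X together held 214 of the 803 calls. Without them 589 remained, 259 higher and 330 lower, and in the adrenergic list the count went from 9 to 8 (Mycn left), while the mesenchymal (7), contractile (4) and matrix (6 higher, 1 lower) counts did not change. The mesenchymal list shares Acta2 with the contractile list and Sparc and Fn1 with the matrix list, so these counts are not independent.

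Windows of 25 expressed genes in order along each chromosome, drawn after the medians had been seen and given without a test, showed how even the shifts were. All 17 windows of chromosome 12 had a median between -0.49 and -0.31, and all 12 of chromosome 18 between 0.12 and 0.29. Chromosome 5, with a median of -0.164 and 73.7% of 795 genes lower, also had every window below 0, from -0.37 to -0.02. Chromosome X was uneven. A pair of neighbouring windows, from Thoc2 to Pnma5 (GRCm38 chrX:41794991-73037103), had 50 genes with a median of 0.79 in control, 0.88 under knockdown and 0.83 under rescue, and 27 of the 50 were called higher. The windows before it had a median of 0.27 over 100 genes and those after it 0.29 over 249. Chromosome 1 changed level partway: the first 14 windows, from Mrpl15 to Zcchc2 (chr1:4773206-106034074), had a median of 0.18 over 350 genes, and the other 12, from Phlpp1 on, -0.02 over 315. Near the end of chromosome 2, 1 window from Gm14438 to Gm14414 stood at 0.42, 0.48 and 0.47 in the 3 conditions with 0 of its 25 genes called. The DNA of the lines was not analysed here, and the part of chromosome content in these values was not tested.

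**Figure D4:**
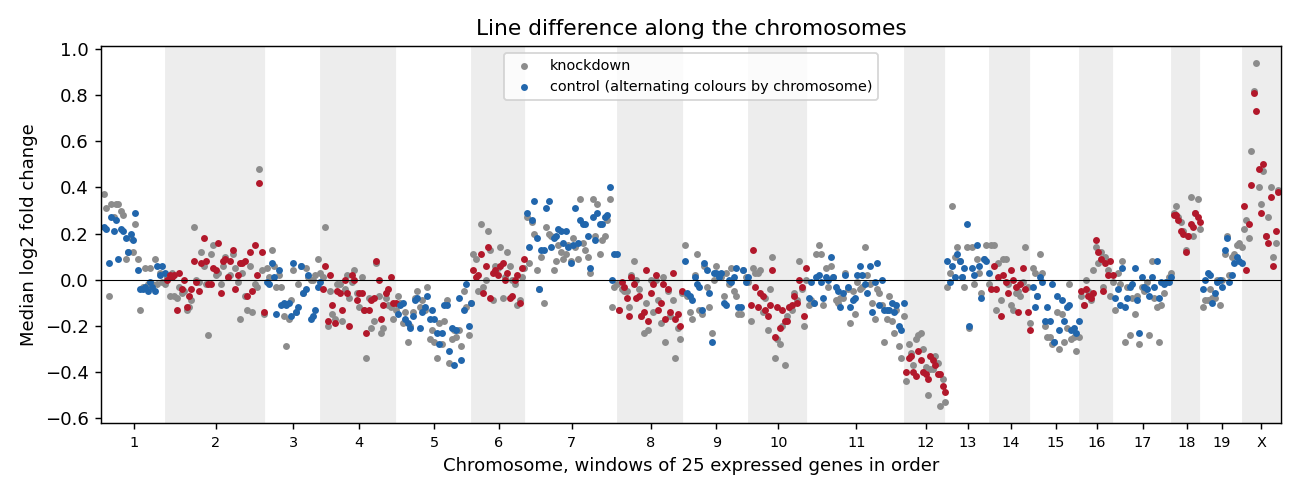
Each point is the median log2 fold change, exon-3-containing over exon-3-lacking, of a window of 25 expressed genes in chromosomal order, coloured for control and grey for knockdown, with chromosomes side by side on the x axis. Chromosomes 12 (-0.49 to -0.31) and 5 (-0.37 to -0.02) lie below 0 throughout, 18 above 0 throughout (0.12 to 0.29), and X holds a pair of windows at 0.81 and 0.73.

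Splicing between the lines was compared on the percentages of the single libraries. Replicates had a median absolute difference of 2.05 points in the exon-3-lacking and 2.17 in the exon-3-containing control. By limma 0 of 28980 events were called at an adjusted p under 0.05 with at least 15 points (0%), 1229 had an unadjusted p under 0.05 (4.24%), and the authors called 215 among the events they list. Without a trend and robust weights limma called 5, all lower. In 2 against 2 libraries, and with the spread shared over all 6 groups, 1 event was called under rescue (0.00345%), which was Sap30bp exon 3 itself. The mean of the control and knockdown comparisons, 4 against 4 libraries without doxycycline, called 4 events (0.0138%), 2 higher and 2 lower.

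The 2 higher ones were neighbouring exons of Itsn2, an endocytic scaffold. The 46-nt exon (mm9 chr12:4678079-4678124) was included at 79.28% and 79.86% in the exon-3-lacking and 100% and 97.37% in the exon-3-containing control, and its mean difference over control and knockdown was 20.38 points (SE 1.94, limma adjusted p = 0.0136). The 122-nt exon went from 85.66% and 82.42% to 100% and 97.68% (17.4 points, SE 2.18, limma adjusted p = 0.0431). Both exons were chosen by their control and knockdown values, so the separation of the lines there follows from the choice. Under rescue the lines did not overlap at either exon. The lower ones were a 192-nt exon of Map4k4, a kinase of adhesion and migration (79.31% and 78.97% against 57.32% and 57.45%, -18.61 points, SE 2.35, limma adjusted p = 0.0431), and a 69-nt exon of Ktn1, kinectin (88.3% and 88.31% against 72.18% and 71.03%, -15.25 points, SE 2.03, limma adjusted p = 0.0459). In rescue, which did not enter this mean, the differences were 13.06 and 12.02 points for Itsn2, -12.55 for Map4k4 and -18.84 for Ktn1. With the replicate number as a block the mean called 0 events. Without the block it called 0 to 3 when any 1 of the 12 libraries was left out. It called 0 when the library left out was either exon-3-containing control, the exon-3-lacking control 1 or the exon-3-lacking knockdown 2. No event passed for a difference between the control and the knockdown line effect (0 by limma, 927 at an unadjusted p under 0.05).

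Microexons, exons of 3 to 27 nt that neurons include and other cells mostly skip, leaned to one side. Of 195 tested, 72.3% were lower in the exon-3-containing control, with a median of -2.31 points, beside 55% of all events and -0.24 points. An unadjusted limma p under 0.05 was reached by 43 of them (22.05%), 39 lower and 4 higher, beside 440 of 6543 longer cassette exons (6.72%) and 537 of 17096 introns (3.14%). None passed after adjustment. The share of microexons that were lower was 66.7% under knockdown and 65.1% under rescue, with medians of -2.02 and -1.71 points. Among longer cassette exons 57.2% were lower in control, 59.3% under knockdown and 52.6% under rescue. Over all events the share was 52.1% under knockdown and 37.1% under rescue. The differences between these shares were not tested.

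Leaving out 1 control library at a time, the count of 43 became 22 (exon-3-containing replicate 1), 38 (exon-3-containing replicate 2), 27 (exon-3-lacking replicate 1) and 27 (exon-3-lacking replicate 2). Of these, 22, 34, 26 and 23 microexons were lower. Srrm4 and Srrm3, the activators of neuronal microexons, were deposited at 9.89 and 6.93 RPKM (FDR 0.421) and at 16.2 and 13.27 (FDR 0.504), and Ptbp1, a repressor of neuronal exons, at 178.67 and 153.45 (FDR 0.767). Whether these levels had a part in the microexon values was not tested.

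The authors called 11 microexons between the control lines, 10 of them lower in the exon-3-containing line. Of the 8 with a match in GENCODE vM21, 5 chosen after their values had been seen are shown on GRCm38, exon in capitals with 15 bases of each neighbouring exon, since such short runs carry the difference.
Picalm, 24 nt, chr7:90194273-90194296: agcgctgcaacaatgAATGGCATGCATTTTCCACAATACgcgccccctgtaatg
Synj1, 24 nt, chr16:90971564-90971587: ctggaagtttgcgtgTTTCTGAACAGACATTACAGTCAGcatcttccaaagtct
Vav2, 15 nt, chr2:27284839-27284853: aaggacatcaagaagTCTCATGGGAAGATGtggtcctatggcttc
Pacsin2, 6 nt, chr15:83383623-83383628: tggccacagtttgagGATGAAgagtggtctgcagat
Cacna1b, 6 nt, chr2:24642853-24642858: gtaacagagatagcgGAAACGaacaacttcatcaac
Picalm and Pacsin2 act in endocytosis, Synj1 (synaptojanin) uncoats vesicles, Vav2 is a guanine nucleotide exchange factor and Cacna1b is a presynaptic calcium channel. The exons of Picalm, Synj1, Vav2, Pacsin2 and Cacna1b are whole multiples of 3 nt.

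The Picalm microexon was included at 59.66% and 56.9% in the exon-3-lacking and 35.35% and 38.03% in the exon-3-containing control (-21.59 points, SE 4.14). In knockdown it stood at 41.25% and 39.06% against 29.04% and 24.05%, and in rescue at 43.47% and 47.58% against 24.22% and 23.33%, so the lines did not overlap in any condition. The 6-nt exon of Pacsin2 was at 53.3% and 56.02% against 32.23% and 37.26% in control (-19.92 points, SE 3.96), and also did not overlap in the other conditions. That of Cacna1b was at 88.35% and 95.82% against 69.22% and 75.83% (-19.56 points, SE 3.59). The exon of Snap91, a clathrin adaptor of synapses, was at 86.73% and 79.86% against 66.35% and 69.59%. The Synj1 exon was at 82.64% and 84.88% against 63.47% and 65.55% (-19.25 points, SE 3.00), but its difference was -8.37 points under knockdown and -3.80 under rescue. That of Clasp2, a microtubule plus-end protein, was -15.67 points in control and 0.60 under rescue. The 1 call in the other direction, a 12-nt exon of Tnnt2, had the opposite sign under knockdown (-8.09 points in the authors' deposited table).

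**Figure D5:**
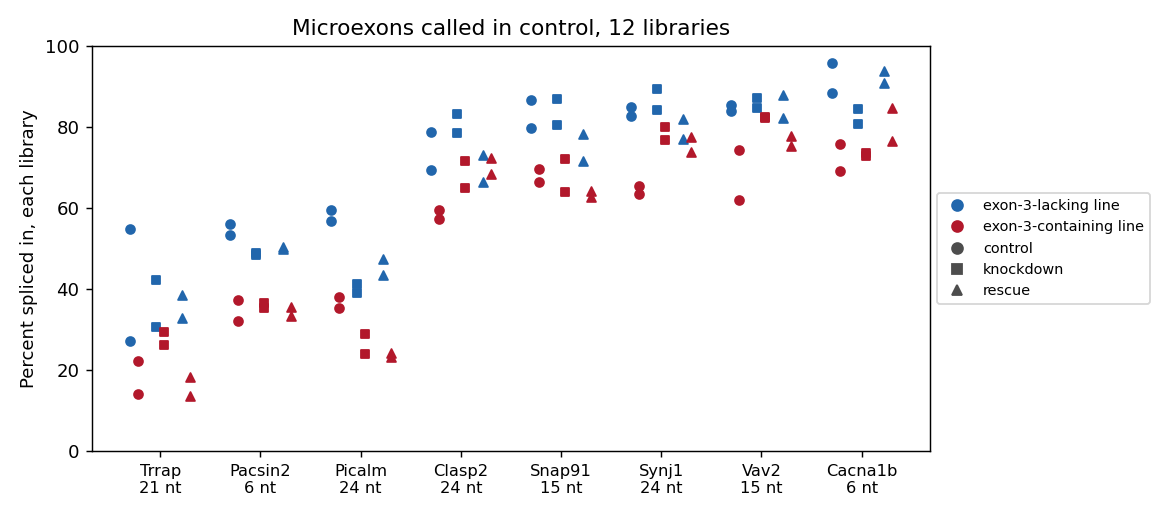
Percent spliced in of the 8 microexons called by the authors in control that have a value in all 12 libraries, each point 1 library, blue for the exon-3-lacking and red for the exon-3-containing line, with circles for control, squares for knockdown and triangles for rescue. The exons were chosen by their control difference, so the separation of the circles follows from the choice; under rescue the lines overlap for Clasp2 and Synj1.

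In all, the authors' deposited table of events marks 215 of the 2129 listed events with a verdict for this comparison (10.1%), 62 higher and 153 lower in the exon-3-containing line, each with at least 15.01 points. The listed events had been selected by the authors, so this share has no unselected background. They were 100 cassette exons (16 higher, 84 lower), 83 introns (29 and 54), 11 microexons, 11 alternative 3' splice sites (7 and 4) and 10 alternative 5' splice sites (9 and 1). Most calls were lower for exons and introns, and higher for alternative 5' splice sites. Many calls rest on incomplete values, since 147 of the 215, and 43 of the 83 introns, had a value in all 4 control libraries. Only 96 calls, 19 of them introns, had values that entered the limma fit. Of 151 calls with a deposited value in both other conditions, 103 had the same sign in both. They were 68 of 87 cassette exons, 7 of 9 microexons, 21 of 44 introns, 3 of 5 alternative 3' and 4 of 6 alternative 5' splice sites. In the control direction the median difference under rescue was 7.98 points for cassette exons, 11.65 for microexons and 1.3 for introns. Introns shifted as a class under rescue. Over all 17096 tested introns the median line difference was -0.24 points in control and 1.21 under rescue. The share of them lower in the exon-3-containing line was 55.8% in control and 27.4% under rescue. The difference between exons and introns in these shares was not tested.

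Of 96 exons and microexons called by the authors in control with a value in both other conditions, 30 kept at least 10 points in the same direction in both. Those named here were picked from such exons after their values and genes had been seen. Others, as in Strada, Tbc1d23 and Eif4h, are not described, so the genes named do not show what the set has in common. A run of 3 exons of Epb4.1l2, a protein that ties actin to the membrane, were higher together. The 63-nt exon (mm9 chr10:25213373-25213435) was at 38.66% and 47.86% against 68.31% and 69.57%, the 147-nt exon at 38.75% and 49.66% against 71.96% and 71.49%, and the 54-nt exon at 19.4% and 23.57% against 51.16% and 53.39%. They lie in 1 gene and are not independent.

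Lower exons of this kind included a 36-nt exon of Epb4.1l3, a relative of Epb4.1l2 (70.51% and 60.21% against 45.72% and 43.61%), and a 108-nt exon of Clasp1, a microtubule plus-end protein (31.37% and 31.52% against 12.28% and 8.85%). A 93-nt exon of Mapt, the microtubule protein tau, was at 60.49% and 67.6% against 48.02% and 45.29%. A 60-nt exon of Dync1i2, a dynein intermediate chain, was at 45.56% and 48.54% against 22.9% and 23.02%. None of these reached an adjusted limma p under 0.05 in control, the lowest being 0.346 for Clasp1. Among introns, a 565-nt intron of Naa35, a subunit of an N-terminal acetyltransferase, was retained at 3.07% and 7.69% in the exon-3-lacking and 25.97% and 26.51% in the exon-3-containing control, with 19 points under knockdown and 17.74 under rescue in the authors' deposited table.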

How the data were processed

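RNA from 12 libraries was sequenced, 2 per group, and the submitters' processing notes name Salmon 0.14.1, edgeR and mm9 without their roles. The deposited expression table gives 1 RPKM per group, made by the authors, and the authors' log2 fold changes with their p-values and FDR for 21541 of its 54393 genes. The deposited inclusion table gives percent spliced in per library for 401633 entries, of which 37194 first sites of alternative splice site groups were left out. The authors' deposited list of events gives a signed score, the difference in percentage points between 2 groups, and a verdict whose rule is not given in the sources. Read depth is unknown, and libraries had a value for 182904 to 207284 events.

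Genes were called at an FDR under 0.05. Ratios of RPKM used a pseudocount of 0.5, a minimum of 1 RPKM in either control group and a 2-fold threshold. Percentages of events with values in all 12 libraries and a mean of 2 to 98% were fitted with limma 3.58.1 (R 4.3.3; trend, robust) over 6 groups with 6 residual degrees of freedom, Benjamini-Hochberg adjustment and a size of 15 points; this was tested on simulated data. Line differences were compared between conditions by a z test rebuilt from the authors' two-sided p-values, which assumes equal errors and is approximate. The labels call the replicates biological; p-values measure the spread between these samples only.

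Named genes were the 4 markers, Sap30bp and Rbm17, the 12 highest and 12 lowest recurrent ratios, and up to 4 members per list past 2-fold; other called list members, exons and chromosome windows were named after their values were seen. The comparison and the 28 gene lists were chosen with earlier results of these data known. Replicate numbers were checked for pairing: deviations correlated at 0.042 to 0.31 over 15 pairs of groups, 12 of them over 0.1, and the numbers were not taken as pairs, since not every correlation was over 0.1. Alternatives were other pseudocounts, minimums, folds, centring, limma settings, a replicate block and leaving out each library. Exon and gene positions on GRCm38 are from GENCODE vM21, splicing event positions are as deposited, on mm9. Some items are not reported here.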

Additional observations from a re-analysis of the deposited data

Results flagged for a closer look

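For 4 genes the difference between the lines in control cells differed from that in the other conditions, by an approximate test rebuilt from the authors' p-values and adjusted over 21541 genes. Since expression was deposited as 1 RPKM per group, no single library could be examined for these. Plcl1 was deposited at 0.08 and 0.01 RPKM in the controls (exon-3-lacking line first, here and below), at 0.24 and 0.84 under knockdown and at 0.32 and 1.24 under rescue (adjusted p = 6.09e-06 against knockdown and 2.54e-07 against rescue). All of its levels were low. Ccn4, a secreted protein of the matrix, stood at 4.85 and 4.66 RPKM in control, 6.42 and 16.14 under knockdown and 5.88 and 13.57 under rescue (adjusted p = 0.00332 and 0.0232). B230209E15Rik stood at 29.23 and 11.77 RPKM in control and 32.9 and 35.68 under rescue (adjusted p = 0.0324). Gm48275 stood at 18.14 and 1.46 RPKM in control and was listed at 0 in the exon-3-lacking and at 11.44 in the exon-3-containing rescue (adjusted p = 1.55e-08).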

How the results depend on the processing

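Of the gene counts, 803 calls became 501 at an FDR under 0.01 and 436 with at least 5 RPKM in either control group, both chosen after seeing the data. The 940 genes past 2-fold by RPKM became 407 at 5 RPKM, 2256 at 1.5-fold and 257 at 4-fold, and the 41 list members past 2-fold became 108 at 1.5-fold and 14 at 4-fold. Other pseudocounts, centring and no minimum stayed within 1.5 times, and no result reversed. By limma the control comparison called 0 splicing events, but 5 without trend and robust weights (Map4k4 at an adjusted p of 0.0415), 1 with no filter on the mean and 0 to 1 leaving out a library, 1 without either exon-3-containing knockdown replicate. Leaving out a library, knockdown gave 0 to 3, the control minus knockdown difference 0 to 1 (2 with no filter), and the mean of control and knockdown 0 to 3 leaving out a library in place of 4 (6 with no filter, 1 higher and 5 lower). With the replicate block, control called 0 and the mean of control and knockdown 0 events. Same-numbered replicates deviated together to a degree that differed between groups (r of 0.042 to 0.31 over 15 pairs of groups, 0.143 between the control groups), and nothing in the labels says that a number marks a shared batch or day. Under rescue 1 event was called in each of these refits. Settings of the microexon count were chosen after seeing the data, and it ranged from 22 to 52. Medians of the Y-linked and immune lists could not be recomputed, since no member reached 1 RPKM. The expression values came without libraries or depth, so no library could be left out of them, and 6 residual degrees of freedom limit the splicing calls.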
